A study of Mus musculus with 14 samples.

Results

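The change in transcript levels between day 5 and day 10 after infection was measured in mouse embryonic fibroblasts carrying the reprogramming factors Sox2, Klf4 and Oct4 (SKO). Its arrays were the 4 SKO arrays of days 5 and 10, of 14 in the series, with 1 array for each day in each of 2 arms, with and without vitamin C. For each gene the day 10 value minus the day 5 value was taken within an arm, and genes that moved the same way in both arms were kept. Of 19938 genes measured, 11923 (59.8%) did so, with 5681 higher in both arms (28.5% of all genes) and 6242 lower in both (31.3%). A linear model over the 12 SKO arrays, fitted for all 19938 genes, called 345 changed at an adjusted p under 0.05 (1.73% of all genes), and all 345 were among those that moved the same way in both arms. Of these, 242 were higher at day 10 (1.21%) and 103 were lower (0.517%).

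The fibroblasts are a primary, mixed culture from mouse embryos. They were infected in 2 rounds with retroviruses that carry the 3 factors, without Myc, or with retrovirus for green fluorescent protein (GFP) as control. From day 2 all cells were in embryonic stem cell medium with 15% serum and the cytokine LIF at 1000 units per ml, and the vitamin C arm received 50 µg per ml of vitamin C throughout. Total RNA for whole-transcript arrays was taken from both arms of SKO cells at 6 times (days 3, 4, 5, 6, 8 and 10) and of GFP cells at day 3. The 4 groups compared here were SKO day 5 untreated, SKO day 5 with vitamin C, SKO day 10 untreated and SKO day 10 with vitamin C. All 4 were SKO-infected and in the same stem cell medium, GFP arrays of day 3 alone are analysed here, and the labels name no sort of the cells before lysis. No day had a second array in the same arm and nothing in the labels says that days were separate cultures. The p-values therefore measure how far the difference between arms varied over the days of 1 time course, and say nothing of independent cultures.

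Conversion of fibroblasts by Oct4, Sox2 and Klf4 is known to pass through an early stage, in which fibroblast programmes weaken, division speeds up and epithelial adhesion genes switch on, before the stem cell network of Nanog, Esrrb and their partners becomes active in a small share of cells. Vitamin C, a cofactor of iron-dependent dioxygenases that act on DNA, histones and collagen, is known to raise the yield of such colonies. Fibroblast cultures made from whole embryos also hold small numbers of other cells, macrophages among them, and fibroblasts answer interferon with a large set of antiviral genes.

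Pairs of values below are given untreated before vitamin C. The arrays were alike in scale, with median probe signals of 5.19 to 5.28 on the log2 scale. Fibroblast markers were high throughout: the collagen chain Col1a1 was between 11.58 and 12.55 over the 12 SKO arrays with a median of 12.04, and the intermediate filament Vim between 11.47 and 12.06 with a median of 11.80. Oct4 (Pou5f1) was 4.05 and 4.10 on the GFP arrays and 11.19 to 12.59 on the SKO arrays, where viral and endogenous transcripts were not told apart. Between day 5 and day 10 none of the 3 factors was called: the differences were 0.15 ± 0.17 (standard error) for Pou5f1, -0.07 ± 0.17 for Klf4 and 0.36 ± 0.17 for Sox2. On the first principal component (35.6% of the variance) the day 10 arrays lay at 31.51 and 34.45 and the day 5 arrays at 9.94 and 18.65. On the second component (20.1%) days 4, 6 and 8 lay between -27.14 and -4.08, days 3 and 5 between 16.43 and 35.88, and day 10 at 2.85 and -0.69. With the arrays of days 3, 5 and 10 alone, 78 genes were called, 75 higher and 3 lower, in place of 345. The part of this displacement of the days in the results was not tested.

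The 242 rising genes had a median difference of 1.11 on the log2 scale, with a range of 0.64 to 3.27, and 150 of them (62%) rose at least 2-fold. The 103 falling genes moved less, with a median of -0.86, a range of -1.41 to -0.60 and 22 (21.4%) at least 2-fold lower. The median over all genes was -0.01. Genes that passed 2-fold within each arm were 115 higher (0.577% of all) and 12 lower (0.0602%), and 94 and 10 of these were also called. Rising genes started near the signal of all genes. Their median went from 5.28 at day 5 to 6.60 at day 10, where all genes had medians of 5.51 and 5.55, and 63 of them (26%, against 33.4% of all genes) had a day 5 mean below 4.53, the upper limit of the lowest tercile of mean signal. At day 10 there were 15 below it. Falling genes started well above, with a median of 7.44, and went to 6.51. Around the threshold, Il34 (0.92), Fxyd5 (-0.88) and Islr (0.82) lay just inside, each with a limma adjusted p of 0.0499. Tnn (1.04, adjusted p = 0.0501), Psat1 (-0.73, adjusted p = 0.0503) and Entpd2 (0.71, adjusted p = 0.0507) lay just outside it.

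The counts rested on each of the 4 arrays. Leaving out the untreated day 5 array left 20 calls, the vitamin C day 5 array 38, the untreated day 10 array 66 and the vitamin C day 10 array 99, where the array left alone on a day is assumed to vary like the others. All 345 genes kept their direction in each of these 4 fits. 14 rising genes and no falling gene were called in all 4 fits, while 152 rising and 84 falling genes were called in none. The 14 were Tac2, Lyz2, Dpp6, F13a1, Epcam, Mpzl2, Spock2, Glra2, Npy, Olfml1, Srgn, Rnase1, Spint1 and Erich3, of which Spock2, Glra2, Npy, Olfml1, Srgn, Rnase1 and Erich3 are named here after their values were seen. Npy encodes a neuropeptide, Glra2 a glycine receptor subunit, Srgn a proteoglycan of secretory granules and Rnase1 a secreted ribonuclease.

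**Figure D1:**
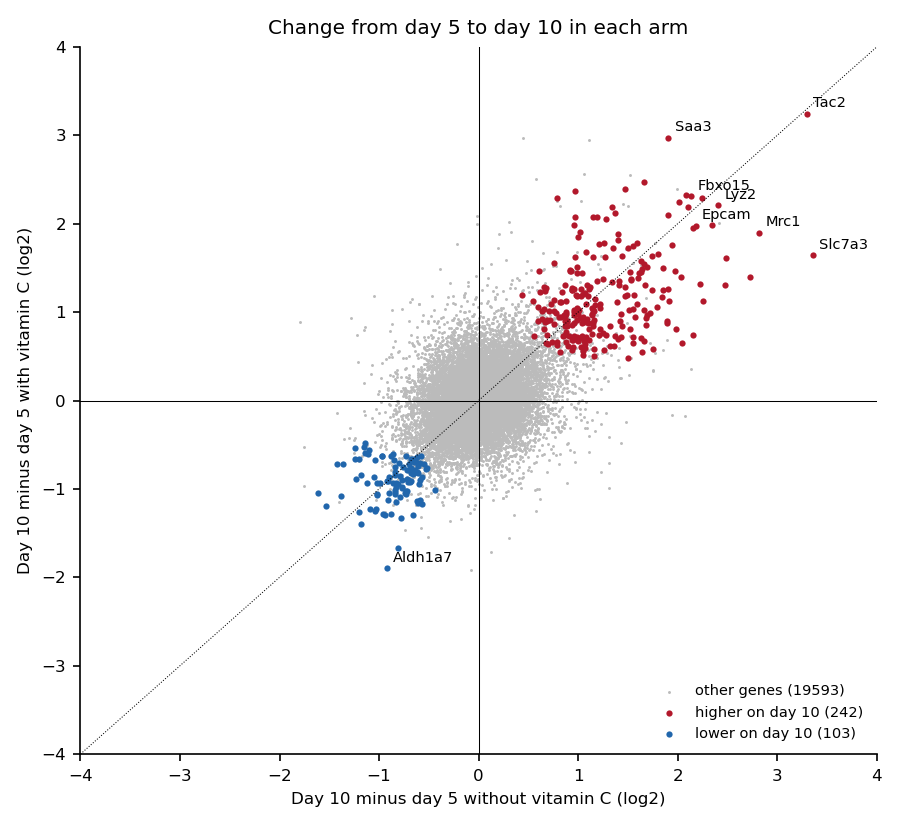
Day 10 minus day 5 (log2) for each gene, without vitamin C on the horizontal axis and with vitamin C on the vertical axis; red points are the 242 rising genes, blue points the 103 falling genes, grey points the other genes, and the dotted line marks equal change. The risers reach farther from 0 than the fallers. All called genes have the same sign in both arms, but their calls rest on the same values, so this is not separate evidence.

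Of the rising genes, the largest difference was that of Tac2, which encodes the precursor of the neuropeptide neurokinin B. Tac2 was 3.84 and 4.33 at day 5 and 7.13 and 7.57 at day 10, a rise of 9.65-fold (3.27 ± 0.28 on the log2 scale, adjusted p = 0.000638). Both day 10 arrays lay far above both day 5 arrays and above the GFP arrays, at 3.71 and 3.58. A call rests on the same day 5 and day 10 values, so separation of these days in a called gene is not separate evidence. A second neuropeptide precursor, Trh, which encodes thyrotropin-releasing hormone, went from 7.98 and 9.07 to 10.72 and 10.47 and rose 4.19-fold (adjusted p = 0.0293). In Trh the untreated array moved farther, from the lowest of the 4 values to the highest. Foxd1, a forkhead factor of the same list, rose by 0.81 (adjusted p = 0.0362) and Tubb3, a neuronal tubulin, fell by 1.02 (adjusted p = 0.015). The other 20 of the 24 neural markers measured were not called.

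Membrane transporters for amino acids were also among the 12 largest rises. Slc7a3, a carrier of cationic amino acids that is abundant in embryonic stem cells, went from 6.22 and 7.58 to 9.58 and 9.23 (5.67-fold, 2.50 ± 0.47, adjusted p = 0.0243). The arms of Slc7a3 started far apart, with vitamin C higher, and ended close together; its call remained without 1 of the 4 arrays, and its adjusted p reached 0.234 without another. Slc38a5, a carrier of glutamine and other neutral amino acids, rose 4.82-fold from 4.77 and 5.41 to 7.01 and 7.71 (adjusted p = 0.00425). Slc38a4, of the same carrier family, moved the other way, from 7.69 and 7.56 to 6.31 and 6.49 (-1.23 ± 0.15, adjusted p = 0.00319). Its day 5 and day 10 values did not overlap, but its call rests on the same values. Among 34 genes of the ATF4 and amino acid stress programme, Slc7a3 and the cystine carrier Slc7a11 (1.09, adjusted p = 0.0364) rose. Slc38a4, the serine synthesis enzyme Phgdh (-0.99, adjusted p = 0.0113) and asparagine synthetase, Asns (-0.88, adjusted p = 0.0472), fell. The list's median was -0.11.

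Of the 12 largest rises, others were Saa3, an acute-phase protein, Dpp6, an auxiliary subunit of neuronal potassium channels, Dmgdh, a mitochondrial enzyme of choline breakdown, and Clec3b, the plasminogen-binding protein tetranectin. Saa3 went from 4.14 and 4.92 to 6.04 and 7.89 (5.43-fold, adjusted p = 0.0186). Dpp6 went from 5.39 and 5.44 to 7.47 and 7.76 (4.60-fold, adjusted p = 0.000638), and its 2 arms lay close together on both days. Dmgdh rose 4.42-fold and Clec3b 4.37-fold, and in both the vitamin C arm was about 1 log2 unit above the untreated arm on both days.

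**Figure D2:**
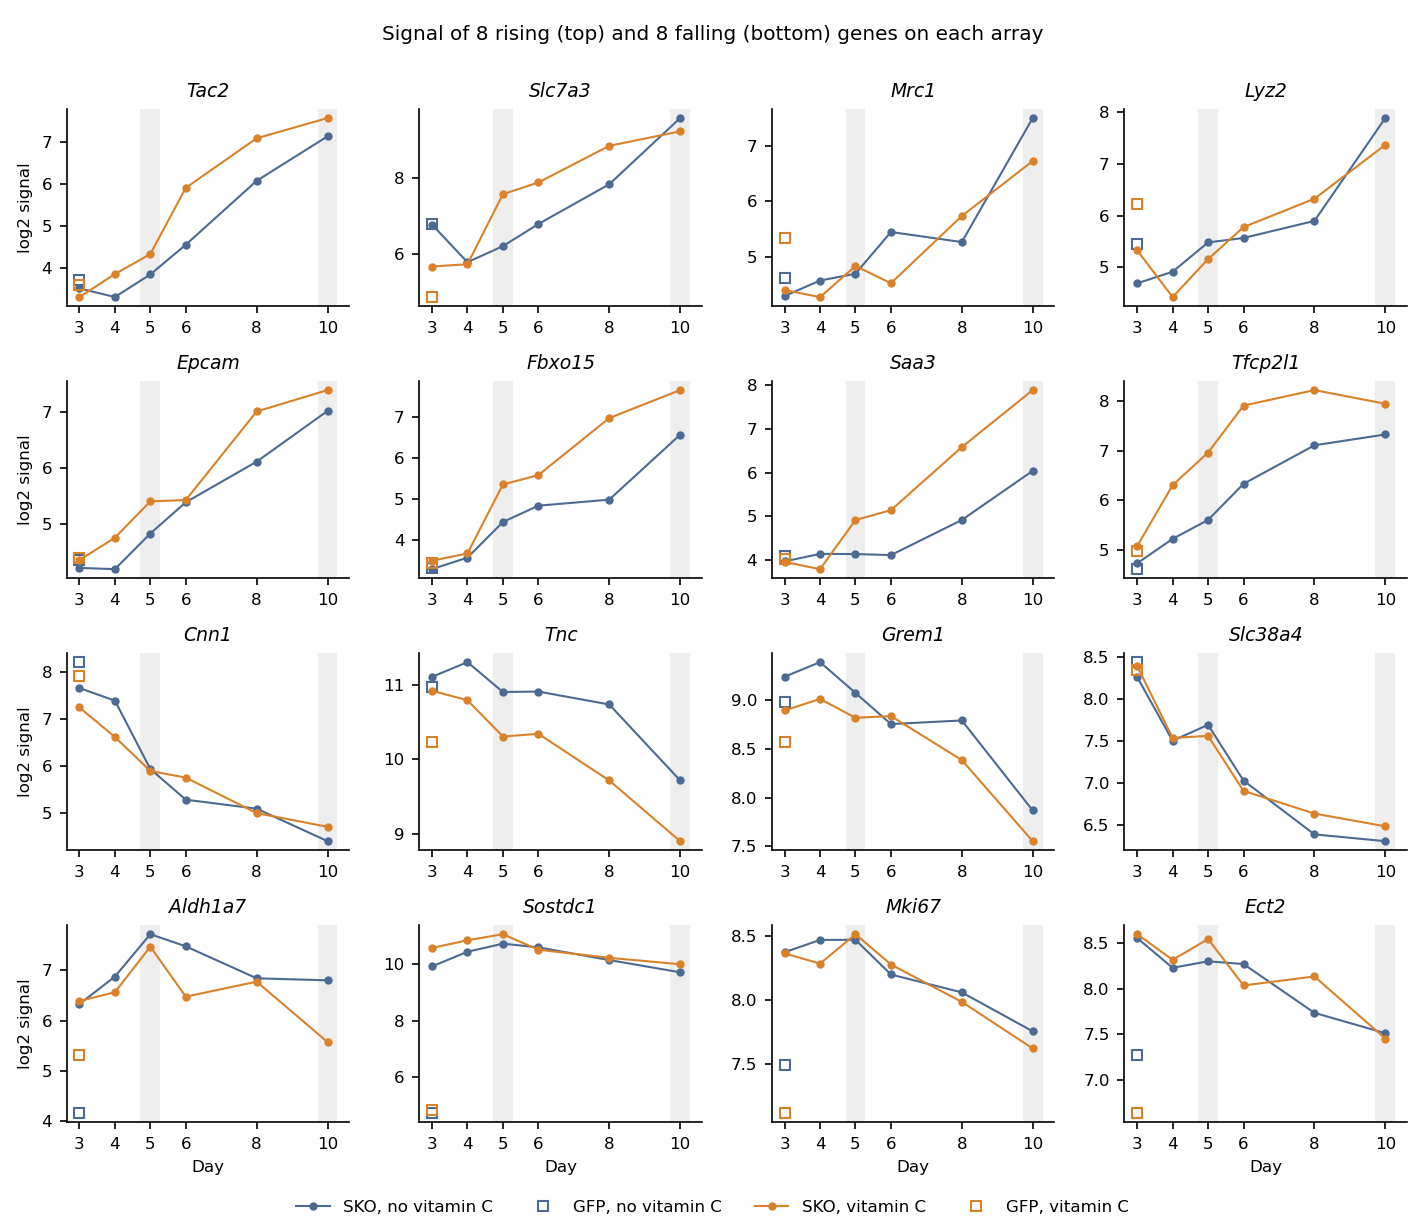
Log2 signal of 16 named genes by day in SKO cells without vitamin C and with it, with the GFP arrays of day 3 as separate marks; each point is 1 array. In each arm Tac2, Mrc1, Lyz2 and Epcam are at their highest on day 10, and Tnc and Grem1 at their lowest.

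A few epithelial adhesion and protease-inhibitor genes rose. Of 36 epithelial genes measured, 6 were called higher (1.21% of all genes were) and none lower. In both arms 21 were higher (28.5% of all genes were), and the median was 0.27. Epcam, an adhesion molecule of epithelia and stem cells, went from 4.83 and 5.40 to 7.01 and 7.38 (4.23-fold, 2.08 ± 0.20, adjusted p = 0.00104). Mpzl2, an epithelial adhesion protein, went from 5.56 and 6.92 to 8.05 and 8.53 (4.14-fold, adjusted p = 0.00254). In both genes the 2 day 10 arrays were above the 2 day 5 arrays. Their calls rest on the same values, so this is not separate evidence. The membrane protease matriptase, St14, and its inhibitor Spint1 moved together: St14 rose 2.88-fold (adjusted p = 0.00301) and Spint1 2.96-fold, from 4.45 and 4.97 to 6.10 and 6.46 (adjusted p = 0.00115). The related inhibitor Spint2 rose 1.97-fold from a higher starting signal of 7.09 and 7.12, and the tight junction protein Ocln 1.88-fold (adjusted p = 0.0436). E-cadherin, Cdh1, was 5.14 and 5.28 at day 5 and 5.64 and 6.35 at day 10 and was not called (adjusted p = 0.109), and the keratin Krt8 differed by 0.22. Leaving out single arrays left 3 to 5 calls in this list, the fewest without the untreated day 5 array. No gene of 22 mesenchymal transcription factors was called (median -0.05), with Snai2 at -0.35 and Zeb1 at 0.00, and none of 15 keratinocyte markers.

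Of 28 stem cell marker and effector genes, 4 were called higher (1.21% of all genes were) and none lower. In both arms 17 were higher (28.5% of all genes were), and the median was 0.29. The 4 were Slc7a3, Epcam, Fbxo15 and L1td1. Fbxo15, an F-box protein whose promoter serves as a reporter of reprogramming, went from 4.44 and 5.36 to 6.58 and 7.67 (4.68-fold, 2.23 ± 0.35, adjusted p = 0.0112). The vitamin C arm was the higher one on both days. Both day 10 values exceeded both day 5 values, but the call of Fbxo15 rests on the same values. L1td1, an RNA-binding protein of stem cells, rose by 0.78 (adjusted p = 0.0419). The calls of Fbxo15 and L1td1 were lost whichever of the 4 arrays was left out. Their differences were then 2.077 to 2.376 for Fbxo15 and 0.708 to 0.848 for L1td1. Without single arrays the list held 1 or 2 calls, the fewest without the untreated day 5 array or either day 10 array.

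Among 25 pluripotency transcription factors, 1 was called. Tfcp2l1, a target of LIF signalling that sustains naive stem cells, went from 5.60 and 6.96 to 7.33 and 7.95 (2.56-fold, adjusted p = 0.0228). The arms were far apart at day 5, and the vitamin C day 5 value lay near the untreated day 10 value. The call of Tfcp2l1 was lost whichever of the 4 arrays was left out, with differences of 1.117 to 1.595. Nanog, the core factor of the network, was 5.17 and 5.54 at day 5 and 5.71 and 7.35 at day 10 (1.17 ± 0.31, adjusted p = 0.0864). On the vitamin C arrays Nanog was 6.49 at day 8 and 7.35 at day 10, and the 10 other SKO arrays lay between 5.17 and 5.89. Dppa5a was 4.35 and 3.56 at day 5 and 4.34 and 5.56 at day 10 (adjusted p = 0.276), again with the vitamin C day 10 array highest. Esrrb differed by -0.35 and Zfp42, which encodes Rex1, by 0.19, and none of 22 germline genes was called. Of 12 TET and DNA methyltransferase-related genes only the cytidine deaminase Apobec1 was called, rising 2.80-fold (adjusted p = 0.00313); Tet1, Tet2 and Tet3 differed by 0.42, 0.31 and 0.04.

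Macrophage markers were higher at day 10. Of 32 measured, 13 were called higher (1.21% of all genes were) and none lower. In both arms 28 were higher (28.5% of all genes were) and none lower. In each arm 10 were at least 2-fold higher (0.577% of all genes were). The median was 0.71. The mean over the 32 markers was 4.36 and 4.52 at day 5, 4.64 and 4.88 at day 8 and 5.32 and 5.30 at day 10, against 4.42 and 4.55 on the GFP arrays. It thus lay near the GFP level until day 5 and was highest on both day 10 arrays. Mrc1, the mannose receptor, went from 4.69 and 4.83 to 7.51 and 6.73 (5.13-fold, 2.36 ± 0.29, adjusted p = 0.00319), and Lyz2, lysozyme, from 5.48 and 5.16 to 7.89 and 7.37 (4.97-fold, adjusted p = 0.00301). In both the untreated day 10 array was the highest of the 12 SKO arrays. Clec4n, the pattern receptor dectin-2, rose 3.61-fold, and cathepsin S, Ctss, 3.32-fold from 4.92 and 5.07 to 6.73 and 6.72. The other 9 called markers, which lie outside the 4 of largest difference and are named after their values were seen, were the F4/80 antigen Adgre1, the pore-forming Mpeg1, Ms4a6d, the Fc receptor genes Fcgr2b and Fcer1g, the inhibitory receptor Lilrb4a, the scavenger receptor Msr1, the tetraspanin Cd53 and the lysosomal Cd68. F13a1, a coagulation factor chain that macrophages also make, rose 4.49-fold from 4.07 and 4.48 to 6.41 and 6.47 (adjusted p = 0.000393).

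Several defining markers stayed low. The leukocyte antigen Ptprc was 4.13 and 3.95 at day 5 and 4.70 and 4.37 at day 10 (0.49, adjusted p = 0.197). The lineage factor Spi1 was 3.80 and 4.05 against 4.17 and 3.88, and Cd163 lay between 2.96 and 3.41 on these 4 arrays. In whole-culture RNA a larger number of cells of a type and more RNA per cell cannot be told apart. The part of macrophages in the other rises was not tested. Without single arrays 2 to 6 markers of the list were called, the fewest without the untreated day 5 array, and with days 3, 5 and 10 alone 7. Of other cell types, 1 of 16 endothelial markers was called higher (Tek, 0.78, adjusted p = 0.0436). Of 16 adipocyte markers 2 were called higher, Lpl (1.75, adjusted p = 0.00835) and Acsbg1 (1.11, adjusted p = 0.0201), against 1.21% of all genes. Cd36 of the adipocyte list differed by -1.02 and was not called (adjusted p = 0.0891), and the list's median was 0.13. Of 10 erythroid markers 1 was called lower (0.517% of all genes were), the embryonic globin Hbb-y (-1.12, adjusted p = 0.0432). None of 21 skeletal muscle markers was called.

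The transcription factor PU.1, which Spi1 encodes, binds in the promoters of many macrophage genes at a core of GAGGAA. The 250 bases before the transcription start were searched for these letters on both strands in RefSeq's promoter windows, which 21 of the 32 markers had. The core was present in 13 (61.9%), against 25.5% of the windows of all 15614 genes with one. The median difference of the 13 was 0.62 and that of the 8 without it 0.99. The called markers Mrc1, Ctss, Cd53 and Cd68 had the core, and the stretches that hold it are shown because these are the called markers in which the letters were found. Capitals mark the core, or its reverse complement TTCCTC where it lies on the other strand; the sequences run 5′ to 3′ in the direction of transcription. In build GRCm38.p6 they are Mrc1 chr2:14229352-14229411 (plus strand), Ctss chr3:95526595-95526654 (plus strand), Cd53 chr3:106790156-106790215 (minus strand) and Cd68 chr11:69666363-69666420 (minus strand). A match is a description of the letters and not evidence of binding.
Mrc1: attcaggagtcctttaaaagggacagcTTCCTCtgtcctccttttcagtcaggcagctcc
Ctss: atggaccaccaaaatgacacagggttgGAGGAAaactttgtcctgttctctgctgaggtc
Cd53: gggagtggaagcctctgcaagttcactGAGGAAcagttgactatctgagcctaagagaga
Cd68: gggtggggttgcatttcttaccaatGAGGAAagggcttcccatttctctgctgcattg

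Interferon response genes were higher as a group, but few passed the test. Of 42 measured, 37 were higher in both arms (28.5% of all genes were) and 16 passed 2-fold in each arm (0.577% of all). The median was 0.90, while 3 were called higher (1.21% of all genes were). The mean of the 42 genes went from 5.65 to 6.57 without vitamin C and from 6.42 to 7.53 with it. It was 7.52 at day 8 in the vitamin C arm, so that arm was flat from day 8, and on the GFP arrays it was 5.73 without and 6.95 with vitamin C. The called members were Trim30a, a regulator of innate signalling (3.40-fold, from 3.25 and 3.87 to 4.58 and 6.06, adjusted p = 0.0489), Parp14, an ADP-ribosyltransferase (2.74-fold, adjusted p = 0.0477), and Ifitm1, a membrane protein that blocks viral entry (1.85-fold, adjusted p = 0.0305). Oas2, a sensor of double-stranded RNA, was 4.94 and 6.28 at day 5 and 6.93 and 8.68 at day 10 (2.19 ± 0.55, adjusted p = 0.0751). Its values did not overlap between the days, but the arms lay far apart on both days, and the test measures how far that arm difference varied over the days. Ifit3 (2.03 ± 0.59, adjusted p = 0.128), Gbp3 (1.77 ± 0.44, adjusted p = 0.0696) and Ifit1 (1.58 ± 0.60, adjusted p = 0.267) had differences of like size and were not called. Leaving out any 1 of the 4 arrays left no call in this list. The count moved with how the spread was estimated: it was 23 with the arrays of days 5 and 10 alone, 12 with an intensity trend, 16 with array weights and 0 without the arm term. Of 12 antigen presentation genes, 10 were higher in both arms (28.5% of all genes were). The peptide-loading factor Tapbp was the 1 called (0.71, adjusted p = 0.0435).

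The interferon-stimulated response element was searched as GAAANNGAAA on both strands of the same 250 bases. It was present in 12 of the 31 interferon genes with a window (38.7%), against 3.4% of all windows. The 12 had a median difference of 1.37 and the 19 others 0.80. Of the 242 rising genes 188 had a window and 14 of these held the element (7.45%). The stretches of Ifit3, Gbp3, Trim30a and Ifit1 are shown since they include 1 called gene and 3 of like size that were not called. Capitals mark the element, as its reverse complement where it lies on the other strand, and matches can overlap one another. In GRCm38.p6 the stretches are Ifit3 chr19:34583346-34583443 (plus strand), Gbp3 chr3:142559972-142560041 (plus strand), Trim30a chr7:104465194-104465256 (minus strand) and Ifit1 chr19:34640758-34640840 (plus strand).
Ifit3: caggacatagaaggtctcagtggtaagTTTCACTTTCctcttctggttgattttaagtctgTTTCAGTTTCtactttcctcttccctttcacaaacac
Gbp3: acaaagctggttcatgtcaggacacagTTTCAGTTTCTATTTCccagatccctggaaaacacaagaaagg
Trim30a: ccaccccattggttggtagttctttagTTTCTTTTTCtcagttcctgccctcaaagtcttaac
Ifit1: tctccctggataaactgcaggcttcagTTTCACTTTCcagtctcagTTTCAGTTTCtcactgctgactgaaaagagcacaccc

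Of 24 chemokine and cytokine genes, Ccl11, the eosinophil attractant eotaxin, was called, rising 3.13-fold from 5.08 and 5.18 to 6.62 and 6.92 (adjusted p = 0.0123). Of 14 complement genes, 2 regulators were called, the membrane inhibitor Cd59a (3.22-fold, adjusted p = 0.00319) and the C1 inhibitor Serping1 (0.73, adjusted p = 0.0356). The component C4b differed by 1.65 ± 0.41 and was not called (adjusted p = 0.0751). Of 14 genes of the IGF axis, the binding proteins Igfbp5 (from 8.34 and 8.15 to 9.39 and 9.09, adjusted p = 0.0184) and Igfbp4 (0.99, adjusted p = 0.013) rose and the adaptor Grb14 fell (-0.88, adjusted p = 0.0196). Dlk1, an imprinted membrane protein, rose 2.48-fold from 7.04 and 7.20 to 8.72 and 8.14, and the secreted peroxidase Gpx3 2.29-fold (adjusted p = 0.0123). Igfbp4, Igfbp5, Dlk1 and Gpx3 ended below their GFP levels: Igfbp5 reached 9.39 and 9.09 against 11.13 and 10.99, and Dlk1 8.72 and 8.14 against 9.12 and 9.65. Gpx3, Igfbp4, Dlk1 and Igfbp5 did not rise steadily, and in each arm their day 5 values lay below those of day 4. Gpx3 was 7.75 and 7.76 at day 4, 6.64 and 6.77 at day 5, 8.13 and 8.64 at day 8 and 7.56 and 8.24 at day 10. Igfbp4 was 8.71 and 8.56, 7.86 and 7.87, 9.35 and 9.26, and 8.82 and 8.90 on the same days. Dlk1 was 7.55 and 7.44, 7.04 and 7.20, 8.78 and 8.38, and 8.72 and 8.14 on these days. For Igfbp5 the values were 8.81 and 8.29, 8.34 and 8.15, 9.33 and 9.14, and 9.39 and 9.09. Among surface genes of fibroblasts only 1 of 19 was called, the ectonucleotidase Nt5e (from 8.17 and 8.63 to 9.42 and 9.40, adjusted p = 0.0178); Thy1 was 8.60 and 8.64 at day 5 and 8.61 and 8.30 at day 10.

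Matrix genes went both ways. Of 33 matrix genes other than collagens, 2 rose and 3 fell. Elastin, Eln, rose 2.90-fold from 7.18 and 7.81 to 8.53 and 9.54 (adjusted p = 0.0305), and the collagen-binding proteoglycan Fmod by 0.92 (adjusted p = 0.0363). Tenascin C, Tnc, a matrix protein of migrating and wound cells, went from 10.90 and 10.30 to 9.72 and 8.90 (-1.29 ± 0.19, adjusted p = 0.00784). The days did not overlap in Tnc, but its call rests on the same values. The elastic fibre proteins Fbln5 (-1.06, adjusted p = 0.0219) and Fbn2 (-0.97, adjusted p = 0.0462) fell while elastin rose. No gene of 22 collagen chains (median -0.01) or of 20 collagen-modifying enzymes (median -0.16) was called, with Col1a1 at 11.96 and 11.93 against 11.64 and 11.58. Of 17 matrix metalloproteinases and inhibitors Mmp3, stromelysin, was called, with 5.56 and 5.78 against 7.54 and 6.60 (2.64-fold, adjusted p = 0.0334).

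The 12 largest falls held genes of several kinds. Aldh1a7, an aldehyde dehydrogenase, went from 7.72 and 7.47 to 6.80 and 5.57 (2.65-fold lower, -1.41 ± 0.28, adjusted p = 0.0292). Its day 10 values were still above the GFP arrays, at 4.16 and 5.31. Grem1, a secreted antagonist of BMP, went from 9.07 and 8.81 to 7.87 and 7.55 (-1.23 ± 0.16, adjusted p = 0.00361). The rest of the 12 with a known role were the smooth muscle calponin Cnn1, Tnc, the cadherin Cdh18, Slc38a4, the tetraspanin Tspan2, the protocadherin Pcdh10, the single-stranded DNA-binding Nabp1, the BMP-processing protease Tll1 and Hbb-y, with differences of -1.36 to -1.12, and Arxes1 (-1.33). Of 36 BMP, TGF-beta and WNT genes 3 were called, all of them secreted antagonists. Grem1 and Sostdc1 (-1.05 ± 0.18, adjusted p = 0.0172) fell and Chrdl1, another BMP antagonist, rose 2.21-fold (adjusted p = 0.00324). Sostdc1 was 10.74 and 11.08 at day 5 and 9.72 and 10.01 at day 10, against 4.70 and 4.79 on the GFP arrays.

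Genes of mitosis were lower at day 10. Of 48 measured, 47 were lower in both arms (31.3% of all genes were) and 19 were called lower (0.517% of all), with a median of -0.67. The mean of the 48 went from 7.44 and 7.50 at day 5 to 6.81 and 6.82 at day 10, against 6.71 and 6.48 on the GFP arrays of day 3. It was 7.33 and 7.33 at day 4, 7.18 and 7.10 at day 6 and 6.90 and 7.02 at day 8. With day 6 as the base, chosen after the data were seen, the list's median was -0.32 and 7 genes were called lower. The members of largest difference were Cdca8, a subunit of the chromosomal passenger complex (-0.97, adjusted p = 0.0109), Ect2, the exchange factor that starts cytokinesis (-0.94, adjusted p = 0.0204), Cenpe, a kinetochore motor (-0.93, adjusted p = 0.015), and the checkpoint kinase Bub1 (-0.92, adjusted p = 0.0228). The proliferation marker Mki67 went from 8.47 and 8.52 to 7.76 and 7.62 (-0.80, adjusted p = 0.0184). In Mki67 each day 10 value was below each day 5 value, on which its call also rests. Each was above the GFP arrays, at 7.49 and 7.12. The calls depended on the arrays: 0 of the 19 remained called when any 1 of the 4 arrays was left out or when only days 3, 5 and 10 were fitted, and 10 without the arm term. The 39 DNA replication genes had 32 lower in both arms (31.3% of all genes were) and a median of -0.26, and none was called. No call was made among 9 CDK inhibitors and D cyclins, with Cdkn2a at 0.14 and Cdkn2b at -0.32, or among 31 p53 targets (median -0.16).

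Promoters of mitotic genes are known for CCAAT boxes and for the cell cycle homology region (CHR), the site of a repressor complex in resting cells. CHR letters (TTTGAA, both strands) were present in the 250 bases of 14 of the 40 mitosis genes with a window (35%) and in 15.7% of all windows. CCAAT was present in 28 of the 40 (70%) and in 38.8% of all windows. Of the 103 falling genes, 86 had a window; 19 of these held TTTGAA (22.1%) and 54 held CCAAT (62.8%), against 14.9% and 27.7% of the windows of rising genes. The 2 patterns can share a base where they adjoin. Of the 19 called mitosis genes, Ect2, Kif2c, Prc1, Mki67, Kif11 and Top2a held TTTGAA, and their stretches are shown for that reason. The genes encode the cytokinesis factor, a microtubule-depolymerising kinesin, a midzone bundling protein, the proliferation antigen, the spindle kinesin Eg5 and topoisomerase II alpha. Capitals mark TTTGAA or, on the other strand, TTCAAA. In GRCm38.p6 they are Ect2 chr3:27153960-27154019 (minus strand), Kif2c chr4:117178843-117178902 (minus strand), Prc1 chr7:80294419-80294475 (plus strand), Mki67 chr7:135716445-135716522 (minus strand), Kif11 chr19:37376336-37376381 (plus strand) and Top2a chr11:99024190-99024239 (minus strand).
Ect2: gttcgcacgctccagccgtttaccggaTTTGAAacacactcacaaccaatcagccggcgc
Kif2c: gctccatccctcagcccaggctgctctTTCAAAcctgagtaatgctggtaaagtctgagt
Prc1: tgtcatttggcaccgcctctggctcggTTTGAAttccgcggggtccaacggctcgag
Mki67: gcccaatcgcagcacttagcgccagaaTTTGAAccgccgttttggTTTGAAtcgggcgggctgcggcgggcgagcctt
Kif11: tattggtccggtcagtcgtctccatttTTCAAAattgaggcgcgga
Top2a: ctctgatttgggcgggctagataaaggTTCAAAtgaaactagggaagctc

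Contractile genes of the smooth muscle type were lower as well. Of 32 measured, 28 were lower in both arms (31.3% of all genes were) and 6 were called lower (0.517% of all). The median was -0.58. The list's mean went from 7.88 and 7.82 at day 5 to 7.26 and 7.32 at day 10, against 8.83 and 8.71 on the GFP arrays. Cnn1 went from 5.94 and 5.89 to 4.40 and 4.71 (2.57-fold lower, adjusted p = 0.0224). The days did not overlap in Cnn1, but its call rests on the same values. Tspan2 (-1.16, adjusted p = 0.00301), the actin-associated Pdlim1 (-1.04, adjusted p = 0.0281) and the tropomyosin Tpm2 (-0.96, adjusted p = 0.0178) fell too. Actg2 and the smooth muscle actin Acta2 completed the 6, Acta2 from 11.63 and 11.44 to 10.39 and 10.90 (adjusted p = 0.0479). Transgelin, Tagln, was 8.58 and 8.25 against 7.23 and 7.81 and just missed the threshold (-0.89, adjusted p = 0.051). Without single arrays 0 to 4 genes of the list were called, 0 without the untreated day 5 array. The CArG box, the site of serum response factor, was present in 8 of the 28 contractile genes with a window (28.6%) and in 1.45% of all windows, and none of the 8 was called.

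Of 27 sterol and fatty acid synthesis genes, 24 were lower in both arms and none was higher in both (31.3% and 28.5% of all genes were), with a median of -0.33, and 1 was called, the sterol methyl oxidase Msmo1 (-0.73, adjusted p = 0.0477). No gene was called among 22 of glycolysis and hypoxia, 20 of folding in the endoplasmic reticulum, 20 histone demethylases or 29 Hox genes. Of 28 lysosome genes the macrophage markers Ctss and Cd68 were called, of 23 antioxidant genes Gpx3 and of 20 imprinted genes Dlk1. Over all 38 lists, 47 of the 242 rising and 37 of the 103 falling genes belonged to at least 1 list.

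**Figure D3:**
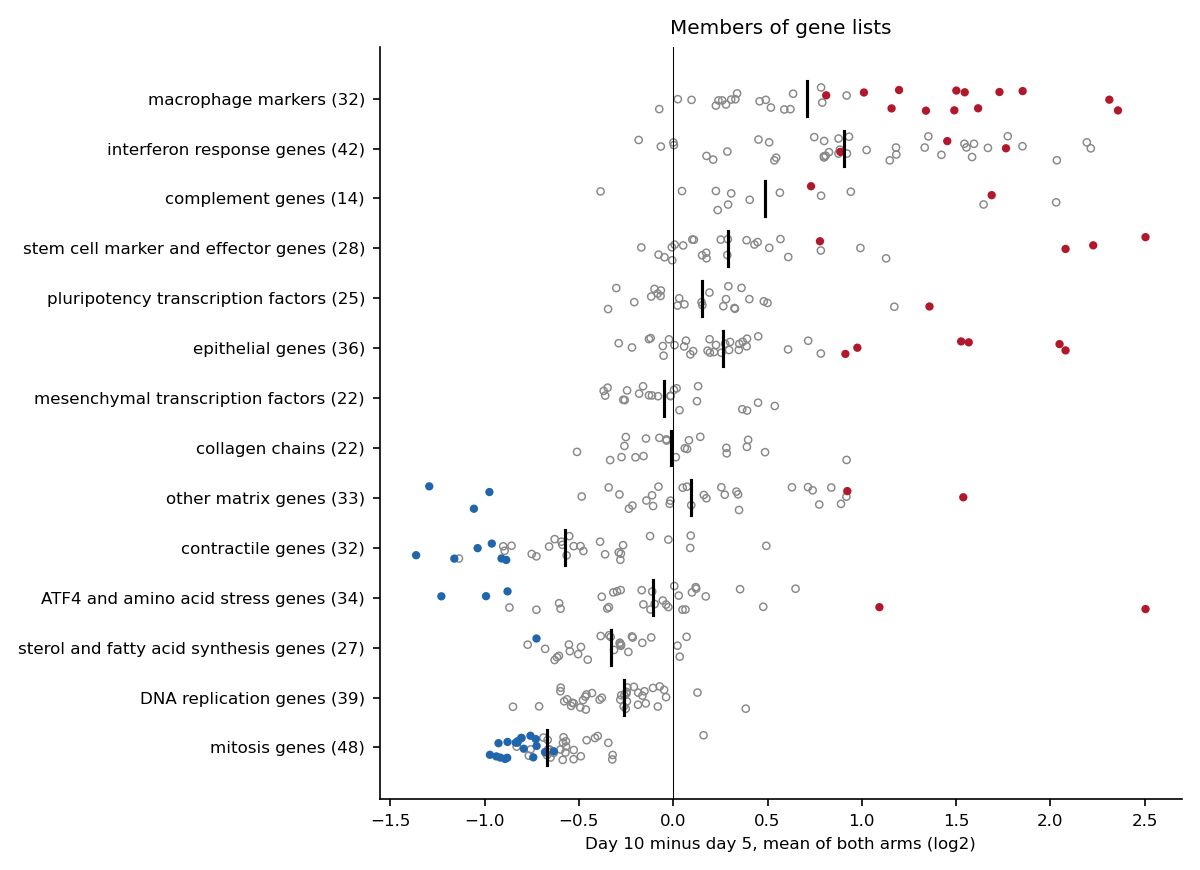
Day 10 minus day 5 (log2, mean of both arms) of the members of 14 gene lists, with the number measured in brackets; each circle is 1 gene, filled red where called higher and blue where called lower, and the bar is the list's median. Interferon response and macrophage lists have the highest medians, at 0.90 and 0.71, and mitosis and contractile lists the lowest, at -0.67 and -0.58.

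**Figure D4:**
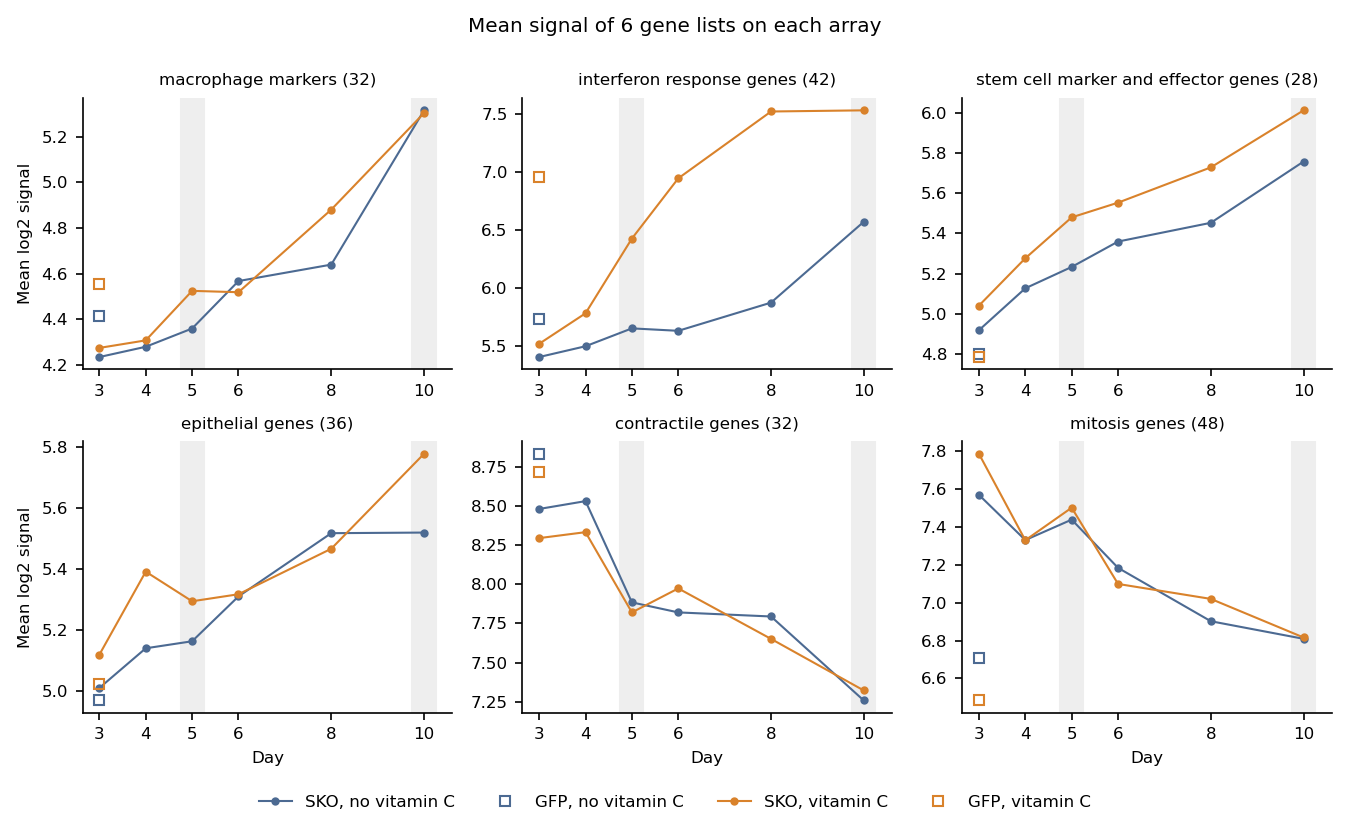
Mean log2 signal of 6 gene lists by day in SKO cells, without vitamin C and with it, and on the GFP arrays of day 3; each point is 1 array. The macrophage mean is highest on day 10 in both arms. Without vitamin C it is 4.57, 4.64 and 5.32 on days 6, 8 and 10. With vitamin C it is 4.52, 4.88 and 5.30, so that arm also rises between day 6 and day 8. The mitosis mean ends near the GFP arrays.

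Day 8 against day 4 shares no array with day 10 against day 5, although both were tested in the same fit and with the same estimate of spread. It called 369 genes higher (1.85% of all genes) and 98 lower (0.492%). Of the 242 genes that rose from day 5 to day 10, 233 (96.3%) were also higher on day 8 than on day 4, against 43.6% of all genes, and 141 (58.3%) were called higher there. Their median difference was 0.97. Of the 103 falling genes 97 (94.2%) were lower on day 8 than on day 4, against 56.4% of all genes, and 25 (24.3%) were called lower. Over all 19938 genes the differences had a Pearson r of 0.502, which is a description across genes of 1 course. From day 4 to day 8, 4 of 32 macrophage markers and 7 of 42 interferon genes were called higher (1.85% of all genes were). Their medians were 0.35 and 1.01. Called lower were 3 of 48 mitosis genes and 13 of 32 contractile genes (0.492% of all genes were), with medians of -0.41 and -0.70.

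**Figure D5:**
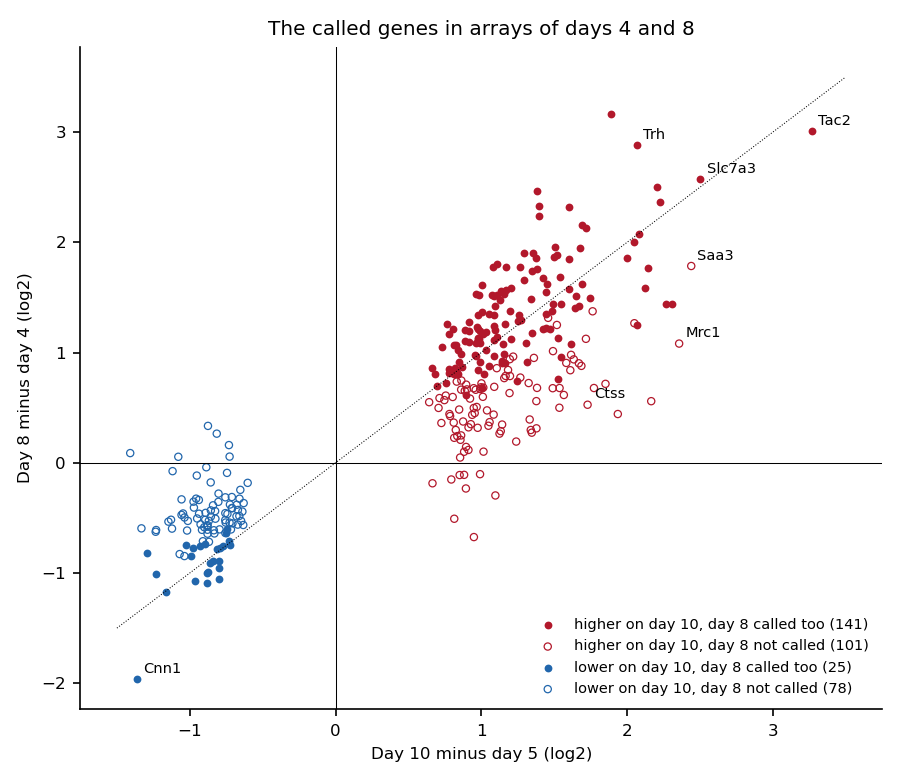
Day 10 minus day 5 on the horizontal axis and day 8 minus day 4 on the vertical axis (both log2) for the called genes; red circles are the 242 rising and blue circles the 103 falling genes, filled where day 8 against day 4 was also called in that direction, and the dotted line marks equal change. Of the rising genes 233 lie above 0 on the vertical axis and of the falling genes 97 lie below it.

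Day 10 was the extreme of the SKO course for many of these genes. In 111 of the 242 rising genes (45.9%) both day 10 arrays were above the 10 other SKO arrays, against 4.04% of all genes, and in 57 of the 103 falling genes (55.3%) both were below them, against 5.09%. These shares follow in part from the choice of genes by their day 10 values. Against the GFP arrays of day 3, 229 rising genes (94.6%, against 31.8% of all genes) were higher on day 10 in both arms, and 59 falling genes (57.3%, against 39% of all genes) were lower. The same choice by day 10 values bears on these shares. Most falling genes were higher in SKO than in GFP cells on day 3: 80 (77.7%) were above GFP and 61 (59.2%) were called higher, against 45.7% and 9.22% of all genes. Of these 61, 28 were above the GFP array in both arms at day 10. Over all genes this held for 1544 of the 1838 called higher in SKO cells on day 3. The choice of falling genes by their day 10 values enters here as well. Of the rising genes, 18 (7.44%) were called higher and 39 (16.1%) lower in SKO than in GFP cells on day 3, against 9.22% and 8.43% of all genes.

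The interval from day 3 to day 5 shares the day 5 arrays with the one from day 5 to day 10, which enter the 2 differences with opposite signs, so values are only set side by side. Of the rising genes 195 (80.6%) were already higher on day 5 than on day 3, against 47.2% of all genes, and 58 (24%) were called higher, against 1.11%. Of the falling genes 86 (83.5%) were lower, against 52.8% of all genes, and 9 (8.74%) were called lower, against 0.281%. A test of whether the change after day 5 differed from that before it called no gene (0% of 19938), with 999 genes (5.01%) at an unadjusted p under 0.05 in limma and a smallest adjusted p of 0.282. No gene was therefore shown to change by a different amount after day 5 than before it. The test compared amounts over intervals of unlike length. Whether a gene was flat before day 5 and changed after it was not tested.

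The 2 arms were not shown to differ in the change from day 5 to day 10. The test of the difference between arms called no gene (0%), with 655 (3.29%) at an unadjusted p under 0.05 in limma and a smallest adjusted p of 1, in a design with 3 residual degrees of freedom. Of the rising genes, 102 (42.1%) had the more positive change with vitamin C, as did 34 (33%) of the falling genes and 50.6% of all genes. On days 3, 4, 6 and 8, which the comparison of days 5 and 10 does not contrast, 207 of the 242 rising genes (85.5%) had a higher mean with vitamin C than without, against 47.6% of all genes, with a median difference of 0.28. Of the 103 falling genes 37 (35.9%) did.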

How the data were processed

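Total RNA of 12 SKO and 2 GFP samples, 100 ng each, was hybridised to whole-transcript mouse arrays. The authors' deposited table held 28853 probe sets with 1 value per array, which range from 0.72 to 14.1 and were read as log2 signal; RMA and Partek are named in the submitters' processing notes, with versions not given in the sources used here. Probes with exactly 1 gene symbol in GEO's platform annotation (21789) gave 19938 genes, each taken from its probe of highest mean; 999 genes had several probes. No further normalization was applied, and the precision is limited by the number of arrays.

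Day (as a factor) and vitamin C arm were fitted over the 12 SKO arrays with lmFit and eBayes (limma 3.58.1, R 4.3.3), which left 5 residual degrees of freedom. All p-values were two-sided and adjusted by Benjamini-Hochberg over all 19938 genes, with a threshold of 0.05; differences are log2, day 10 minus day 5, with their standard errors. The contrast of day 8 with day 4 and that of late with early change came from the same fit. The arm difference used arm-by-day terms, and SKO against GFP on day 3 used all 14 arrays. Named genes were the 12 called genes of largest difference each way, up to 4 members of each list with called members taken first, and a fixed set of factors and markers; predicted genes, clones, olfactory and vomeronasal receptors, histones and small RNAs entered the counts without being named. The members and the 38 gene lists (892 genes measured) were chosen with earlier results of these data known, so no list is independent evidence of its direction. Promoter windows were RefSeq's (GRCm38.p6), searched over the 250 bases before the start. The script was tested on simulated data. Alternatives were other sets of arrays, normalizations, filters, variance models and left-out arrays.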

Additional observations from a re-analysis of the deposited data

Results flagged for a closer look

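Of the 28853 probe sets, 7064 carried no gene symbol or several and entered no comparison above. In a fit over all probe sets, 27 of them were called between day 5 and day 10 (0.382%), 24 higher and 3 lower, against 1.14% of the probe sets with 1 symbol. They are listed as a signal in data outside the main measurement and were not named.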

How the results depend on the processing

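The 345 calls fell to 78 with days 3, 5 and 10 alone and to 96 without the arm term, and rose to 579 with an intensity trend and 777 with array weights; leaving out 1 of the 4 arrays gave 20 to 99. Chosen after the data were seen, day 6 as the base gave 1142 calls (437 higher, 705 lower), day 4 as the base 3182 (1566 and 1616), and day 8 in place of day 10 gave 1005 (686 and 319), so that 38.3%, 49.2% and 68.3% were higher, against 70.1% of the 345. The causes of these shifts were not tested. With days 5 and 10 alone, all 14 arrays, quantile normalization, median centring, the lowest tercile of signal left out, robust variances, the mean of probes or a 1.5-fold minimum the count was within 1.5 times of 345. None of the 345 genes changed direction under the settings that compare day 10 with day 5. Under several of these the difference itself stayed the same by design, so the sign could not change. They were other sets of days, all 14 arrays, no arm term, an intensity trend, robust variances and array weights. The 1.5-fold minimum removed no gene, since all 345 were already past it. Of the 345, 3 changed direction with day 6 as the base and 3 with day 8 in place of day 10. The 127 genes past 2-fold in both arms became 96 to 130, and the 467 calls of day 8 against day 4 became 445 to 461, under the normalizations, filters and probe rules tried for each. The test of arms and that of late against early change called 0 genes under each alternative tried.

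Leaving out single arrays turned the sign of 7 named genes that were not called. Their ranges were -0.038 to 0.415 for Ccnd3, -0.19 to 0.46 for Cdkn2a, -0.031 to 0.746 for Hoxa2, -0.072 to 1.303 for Piwil2, -0.10 to 0.41 for Pou5f1, -0.10 to 0.72 for Tet2 and -0.11 to 0.50 for Zfp42. Of 70 named called genes, 9 to 27 kept their call when 1 array was left out. The comparison is paired by vitamin C arm through the arm term; the labels give no replicate numbers to pair by. Of the rising genes, 63 had a day 5 signal in the lowest tercile, where the array resolves differences least.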
